A study of Mus musculus with 7 samples.

Results

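The 10 genes described here are secreted inhibitors, ligands, receptors and feedback genes of the Wnt pathway, namely Sfrp1, Sfrp2, Sfrp4, Frzb, Dkk3, Wif1, Wnt4, Rspo1, Fzd1 and Axin2. They were taken by symbol from the 23282 entries of the deposited count table, and each was found once. They were measured in cells labelled as glioblastoma and sorted from adult C57BL/6 mice by the red fluorescent protein tdTomato, by QuantSeq, which sequences tags close to the polyadenylated 3' end. There were 3 libraries of genotype WT and 4 of genotype FYN-KO (Fyn-KO below), sorted and prepared independently. Fyn encodes a cytoplasmic tyrosine kinase related to Src. The sources used here do not give how the tumours were induced, what drives tdTomato or which part of Fyn was altered. The comparison is of the libraries labelled Fyn-KO with those labelled WT, which also differed in cell type markers, as given below.

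Wnt proteins are secreted, lipid-modified ligands that bind Frizzled receptors and the co-receptors Lrp5 and Lrp6. Binding stops a cytoplasmic complex of Axin, Apc and Gsk3 from marking beta-catenin for destruction, and beta-catenin then acts with TCF and LEF factors on target genes such as Axin2. Secreted Frizzled-related proteins, Wif1 and the Dickkopf proteins act outside the cell, mostly as inhibitors, and R-spondins raise the response by keeping Frizzled at the surface. The pathway is known for its part in neural stem cells, in glioma growth and in the gonads, where Wnt4 and Rspo1 are genes of ovarian development.

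Library totals were 8976745 to 16371244 counts. The targeted gene Fyn stood at 720 to 1604 counts per 1000000 (CPM) in WT and at 74.5 to 190 CPM in the knockout libraries, and was called lower (log2 fold change -3.43, adjusted p = 0.0121). Genes with a count numbered 7723 to 9924 in WT and 13535 to 14548 in Fyn-KO. WT libraries were uneven: 40.5% of 13122 tested genes reached 20 CPM in 1 WT library and lay under 1 CPM in another, against 0.587% within Fyn-KO. The same held for 6 of the 9 tested members in WT and for 0 in Fyn-KO. In bulk RNA, fewer cells of a type and less RNA per cell cannot be told apart.

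Marker genes of the labelled cells and of other cells differed between the groups. The summed level of 8 oligodendrocyte progenitor markers was 8161 to 12003 CPM across the WT libraries and 138 to 887 CPM in the knockout libraries. Of the 8, 6 were called lower, against 3.51% of all tested genes. Sums of 8 mature oligodendrocyte markers ran from 2756 to 20889 CPM across the WT libraries and 84.9 to 681 CPM in the knockout libraries. Those of 8 astrocyte markers ran from 2105 to 4122 CPM and 106 to 195 CPM. Of those tested, 4 of 6 and 3 of 7 were called lower. The sum of 8 neuron markers was 46.9 to 122 CPM across the WT libraries and 36 to 51.2 CPM in the knockout libraries, with Slc17a7 and Nefl at 0 in all libraries. Tubb3 alone stood at 122, 74.8 and 4.62 CPM across the WT libraries. The sum of 10 markers of steroid-producing cells was 89 to 480 CPM across the WT libraries and 24730 to 29797 CPM in the knockout libraries. Nr5a1, Cyp17a1, Cyp19a1 and Mgarp were at 0 in WT, and the adrenal receptor Mc2r at 0 in all libraries. Of the 9 tested, those 4 at 0 in WT were called higher, against 19.0% of all tested genes, and 5 were not called. Those 4 passed the filter through Fyn-KO alone. Cyp19a1 is also in the list of 10 granulosa and luteal markers. The sum of these 10 was 0.0783 to 7.33 CPM across the WT libraries and 2503 to 3278 CPM in the knockout libraries. Of the 9 tested, 8 were called higher, against 19.0% of all tested genes. Of those 8, 7 had under 10 counts in every WT library and passed the filter through Fyn-KO alone. Foxl2, the granulosa cell transcription factor, stood at 0, 0.0611 and 0 CPM across the WT libraries and 175, 211, 85.5 and 188 CPM in the knockout libraries. The sum of 10 fibroblast markers was 665 to 1540 and 1937 to 2760 CPM, and that of 8 smooth muscle and pericyte markers 40.6 to 443 and 751 to 927 CPM. Of the fibroblast markers, Pdgfra, also in the progenitor list, stood at 663, 1043 and 429 CPM across the WT libraries. It was called lower, and 4 of the 9 fibroblast markers tested were called higher (Dcn, Lum, Dpt and Fbln1). That is 11.1% lower and 44.4% higher, against 3.51% and 19.0% of all tested genes. Lum, Dpt and Fbln1 had under 10 counts in every WT library and passed the filter through Fyn-KO alone. The sum of 8 endothelial markers was 1.1 to 834 CPM across the WT libraries and 409 to 464 CPM in the knockout libraries, and that of 9 microglia and macrophage markers 118 to 333 and 152 to 191 CPM. The latter markers differed among themselves. Of the 8 tested, Cx3cr1 and Tmem119 were called higher, none was called lower, and 5 had a negative log2 fold change. That is 25% higher and 0% lower, against 19.0% and 3.51% of all tested genes. Cx3cr1 and Tmem119 had under 10 counts in every WT library and passed the filter through Fyn-KO alone. The markers thus go against the label of glial tumour cells in all 4 libraries labelled Fyn-KO, where glial markers were low and those of granulosa, luteal and steroid-producing cells high. What cells these libraries hold is not known here, and genotype and cell type cannot be told apart in any Fyn-KO value that follows.

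Of the 10 Wnt genes, Sfrp4 and Rspo1 rose in Fyn-KO, none fell, 7 were tested and not called, and Wif1 had too few counts to test. A call is an adjusted p under 0.05 in the edgeR quasi-likelihood test fitted on all genes with Benjamini-Hochberg adjustment. By that rule 19.0% of 13122 tested genes were higher in Fyn-KO and 3.51% were lower. Sfrp4 and Rspo1 had under 10 counts in every WT library and passed the filter through Fyn-KO alone. The same was true of 2340 of the 2493 genes called higher over the whole table. At an unadjusted p under 0.05, 3 members were higher and 0 were lower, against 26.3% and 7.11% of all tested genes. DESeq2 called 3 higher and 1 lower, against 27.2% and 7% of all. Limma-voom with quality weights called 1 higher and 0 lower, against 0.183% and 2.44%. Without WT replicate 2, 4 members were higher, against 32.8% of 13991 genes tested. The 9 tested members had a median log2 fold change of 2.31, against 0.45 over all tested genes, a median that includes genes which passed the filter on low counts only through Fyn-KO.

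**Figure D1:**
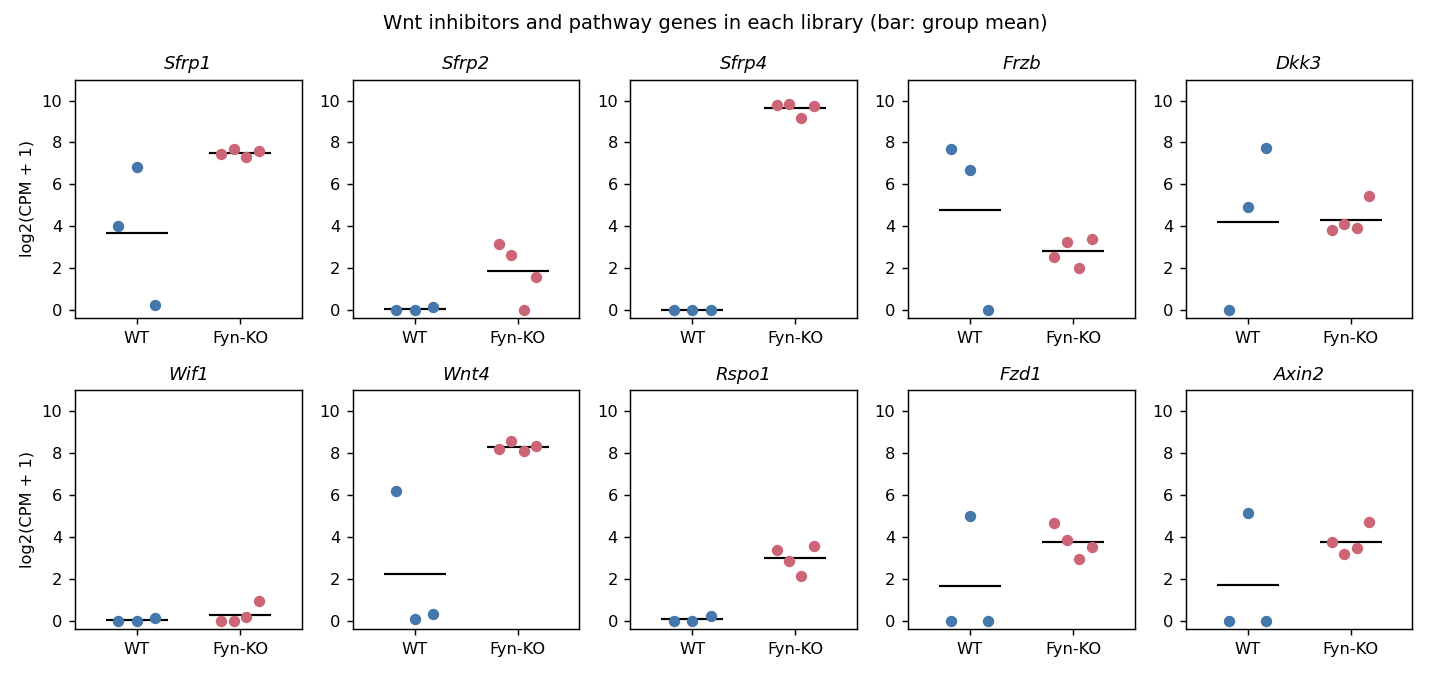
Level of the 10 Wnt genes in each library as log2(CPM + 1), with WT libraries in blue, Fyn-KO libraries in red, points in replicate order from left to right and a bar at the group mean. Sfrp4, Sfrp1, Wnt4 and Rspo1 lay higher in all 4 Fyn-KO libraries than in any WT library, while the WT points of Frzb, Dkk3, Fzd1 and Axin2 spanned the Fyn-KO points.

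Among the secreted inhibitors, Sfrp4, a Frizzled-related protein expressed in the ovary and other tissues, separated the groups by the widest margin of the members. The gene (ENSMUSG00000021319.7, GRCm38 chromosome 13, 19623104 to 19632994, plus strand) had no count in any WT library and reached 873, 922, 578 and 863 CPM in the knockout libraries. The groups did not overlap, and Fyn-KO replicate 3 was the lowest of its group. The Fyn-KO mean of 809 ± 156 CPM (SD, n = 4) was at least 3213-fold higher than the limit of 0.252 CPM that 3 counts set in the shallowest WT library (adjusted p = 0.000777). The fitted log2 fold change of 16.15 is not a measured size, since WT had no count. The call held without each of the 7 libraries (adjusted p 0.00075 to 0.0136) and was lost in limma-voom (adjusted p = 0.3).

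Sfrp1, a Frizzled-related protein that binds Wnt ligands and Frizzled (chromosome 8, 23411502 to 23449632, plus strand), stood at 14.9, 113 and 0.168 CPM across the WT libraries. In Fyn-KO it stood at 175, 202, 159 and 191 CPM. Each Fyn-KO library lay above each WT library, and WT replicate 2 came close to them while WT replicate 3 was near 0. The means were 42.8 ± 61.6 CPM (SD, n = 3) and 182 ± 18.9 CPM (n = 4), 4.24 times higher in Fyn-KO. The log2 fold change of 2.31 ± 1.41 (SE) did not pass the edgeR test (adjusted p = 0.328), and the exact two-sided permutation p of the CPM was 0.0286, the smallest that 35 splits allow. Without WT replicate 2 the log2 fold change was 4.55 (adjusted p = 0.0618, in a range of 0.0618 to 0.508 over its alternatives).

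Sfrp2, a related inhibitor of stromal cells (chromosome 3, 83766321 to 83774316, plus strand), was low throughout. It had 1 count in WT, in replicate 3, and stood at 7.88, 5.1, 0 and 2.01 CPM in the knockout libraries. The groups overlapped because Fyn-KO replicate 3 had no count. The ratio of pooled counts was 157 with a 95% exact counting interval of 27.8 to 6248, and the edgeR test did not call it (adjusted p = 0.0679). Without Fyn-KO replicate 3 it was called (log2 fold change 7.03, adjusted p = 0.0219, in a range of 0.00697 to 0.792 over its alternatives).

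Frzb, the Frizzled-related protein known from cartilage (chromosome 2, 80411970 to 80447625, minus strand), had the opposite direction in 2 of the 3 WT libraries. It stood at 203, 102 and 0 CPM across the WT libraries and at 4.79, 8.37, 3.06 and 9.58 CPM in the knockout libraries. WT replicates 1 and 2 lay above each Fyn-KO library and WT replicate 3 below each of them. The WT mean of 102 ± 101 CPM was 15.8 times the Fyn-KO mean of 6.45 ± 3.04 CPM, and the edgeR test did not call it (log2 fold change -3.93 ± 1.87, adjusted p = 0.194). Without WT replicate 3 it was called lower (log2 fold change -4.51, adjusted p = 0.00804, in a range of 0.00804 to 0.807 over its alternatives).

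Dkk3, a secreted member of the Dickkopf family whose effect on Wnt differs between tissues (chromosome 7, 112116017 to 112159057, minus strand), stood at 0, 29.6 and 210 CPM across the WT libraries. In Fyn-KO it stood at 12.9, 16.3, 14 and 42.3 CPM. The Fyn-KO libraries lay between the WT libraries, with replicate 4 apart from the other 3. The log2 fold change of -2.27 ± 1.87 did not pass (adjusted p = 0.499), and it was 0.79 without WT replicate 3 (adjusted p = 0.81). Wif1, Wnt inhibitory factor 1 (chromosome 10, 121033960 to 121100650, plus strand), had 1 count in WT and 9 counts in Fyn-KO, of which 8 were in replicate 4. Its level of at most 0.891 CPM in any library was too low for the test.

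Wnt4, a ligand of ovarian, kidney and adrenal development (chromosome 4, 137277489 to 137299726, plus strand), was abundant in each Fyn-KO library and in 1 WT library. It stood at 72.8, 0.0611 and 0.252 CPM across the WT libraries and at 290, 383, 277 and 329 CPM in the knockout libraries. The groups did not overlap, and WT replicates 2 and 3 rested on 1 and 3 counts. The Fyn-KO mean of 320 ± 47.5 CPM (SD, n = 4) was 13.1 times the WT mean of 24.4 ± 41.9 CPM (n = 3). The log2 fold change of 3.69 ± 1.94 did not pass (adjusted p = 0.246), while the exact permutation test of the CPM gave p = 0.0286. Without WT replicate 1 it was called higher (log2 fold change 10.81, adjusted p = 0.00697, in a range of 0.000144 to 0.396 over its alternatives). The WT side of that fit rests on the 1 and 3 counts of WT replicates 2 and 3.

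Rspo1, an R-spondin that binds the Lgr receptors and acts with Wnt4 in the ovary (ENSMUSG00000028871.7, chromosome 4, 124986430 to 125009099, plus strand), rose from a low level. It had 0, 0 and 2 counts in WT, the last of which is 0.168 CPM, and stood at 9.27, 6.25, 3.39 and 10.7 CPM in the knockout libraries. Each Fyn-KO library lay above each WT library, and replicate 3 was again the lowest. The ratio of pooled counts was 151 with a 95% exact counting interval of 41.5 to 1254 (log2 fold change 6.58 ± 1.76, adjusted p = 0.029). The call was lost without WT replicate 1 (adjusted p = 0.054, in a range of 1.28e-05 to 0.443 over its alternatives), and the exact permutation test of the CPM gave p = 0.0571.

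Fzd1, a Frizzled receptor (chromosome 5, 4753839 to 4758035, minus strand), and Axin2, the scaffold protein and feedback target of beta-catenin (ENSMUSG00000000142.15, chromosome 11, 108920349 to 108950783, plus strand), had a like pattern over libraries. Fzd1 stood at 0, 30.6 and 0 CPM across the WT libraries and at 24, 13.4, 6.57 and 10.4 CPM in the knockout libraries. Axin2 stood at 0, 33.9 and 0 CPM across the WT libraries and at 12.5, 7.98, 10.1 and 24.8 CPM in the knockout libraries. For both, WT replicate 2 was above each Fyn-KO library and the other WT libraries had no count. The log2 fold change was 0.66 ± 2.15 for Fzd1 (adjusted p = 0.891) and 0.55 ± 2.16 for Axin2 (adjusted p = 0.913). Without WT replicate 2 both were called higher. Fzd1 was then at 10.05 (adjusted p = 0.00486, in a range of 0.00486 to 0.981 over its alternatives). Axin2 was then at 10.09 (adjusted p = 0.00466, in a range of 0.00466 to 0.993). Neither log2 fold change is a measured size, since the WT libraries left had no count of either gene. Without WT replicate 1 or 3, the log2 fold change of Axin2 was -0.03.

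**Figure D2:**
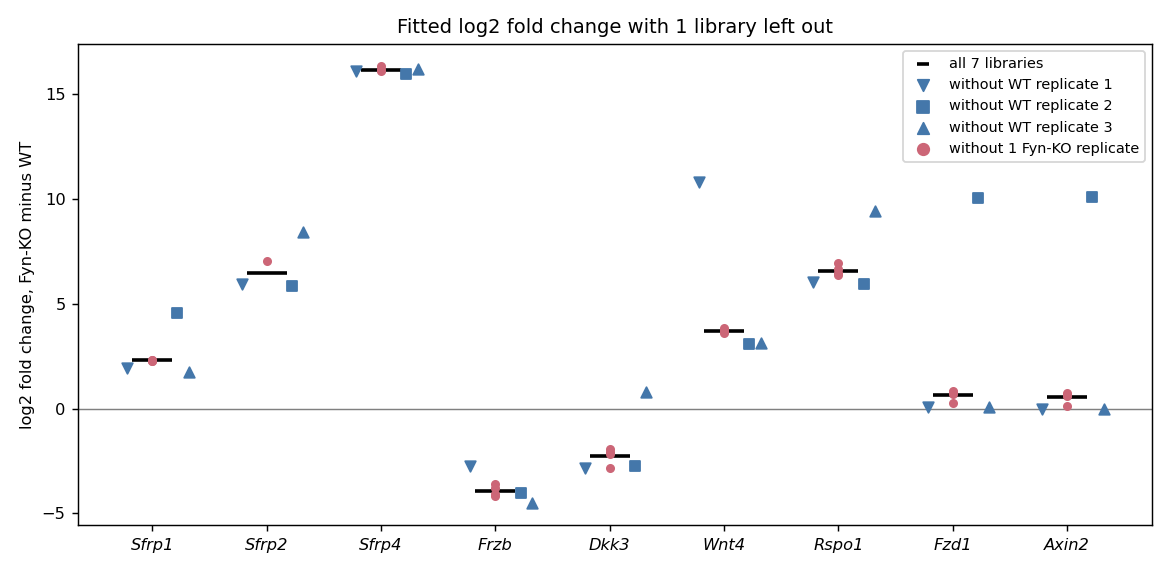
Fitted log2 fold change (Fyn-KO minus WT) of the 9 tested members with all 7 libraries (black bar) and with 1 library left out, as blue symbols for each WT library and red points for each Fyn-KO library. Sfrp4 stayed between 15.96 and 16.36, while Wnt4 moved from 3.69 to 10.81 without WT replicate 1 and Axin2 from 0.55 to 10.09 without WT replicate 2. The Sfrp4 values and the 10.09 of Axin2 are not measured sizes, since WT had no count in those fits. The 10.81 of Wnt4 rests on 1 and 3 counts in WT.

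The promoter windows of Rspo1, the called member with an entry among the RefSeq promoters, and of Axin2, the feedback target, are shown as the stretches where regulatory letters were looked for. Each runs 5′ to 3′ on the plus strand of GRCm38.p6 from 250 bases before the annotated start to 50 bases after it, and capitals mark the 50 bases from the start on. The windows are chr4:124986180-124986479 for Rspo1 and chr11:108920099-108920398 for Axin2.
Rspo1: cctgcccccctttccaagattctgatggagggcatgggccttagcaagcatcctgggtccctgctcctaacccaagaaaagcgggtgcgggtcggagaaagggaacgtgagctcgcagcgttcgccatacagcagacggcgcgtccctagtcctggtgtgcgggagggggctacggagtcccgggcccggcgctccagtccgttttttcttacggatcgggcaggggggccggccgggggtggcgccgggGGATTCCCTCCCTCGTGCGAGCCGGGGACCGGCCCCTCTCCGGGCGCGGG
Axin2: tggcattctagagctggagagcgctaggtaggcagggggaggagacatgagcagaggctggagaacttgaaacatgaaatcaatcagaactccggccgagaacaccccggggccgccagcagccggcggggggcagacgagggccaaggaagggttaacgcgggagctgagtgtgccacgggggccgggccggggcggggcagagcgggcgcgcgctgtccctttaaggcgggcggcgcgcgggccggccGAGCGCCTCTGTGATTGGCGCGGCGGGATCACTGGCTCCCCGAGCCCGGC
The G and C bases made up 69% and 70% of these windows, against a median of 52.7% over 32851 promoters. The letters CTTTGAT of TCF and LEF factors, or their reverse complement ATCAAAG, were in 0 of the 7 member windows and in 3.73% of all windows. The nuclear receptor half-site AAGGTCA, or TGACCTT, was in 0 of the 7 and in 4.72% of all. Of 104 windows of the 77 Wnt genes with an entry, 5 held CTTTGAT (Prickle2, Sp5, Tnfrsf19, Wnt11 and Wnt5b) and 2 held AAGGTCA (Dkkl1 and Tcf7).

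Within Fyn-KO, 1 library was often the lowest. Of the 9 tested members, 7 were lowest in Fyn-KO replicate 3, namely all but Dkk3 and Axin2, against 36.5% of all tested genes. In the wider Wnt lists given below the share was 42.2% of 83 tested genes. Fyn-KO replicate 3 also had the highest summed level of oligodendrocyte progenitor markers within Fyn-KO (887 CPM, against 138 to 409 CPM) and the lowest of granulosa and luteal markers (2503 CPM, against 2997 to 3278 CPM). The part of these differences in the levels of the members was not tested. Of the 9 members, 4 lay higher in each Fyn-KO library than in any WT library (Sfrp1, Sfrp4, Wnt4 and Rspo1) and 0 the other way round. Over all tested genes these shares were 30.1% and 7.32%.

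The genes most like each member over the 7 libraries, by the mean absolute difference of log2(CPM + 1) after each gene's own mean was taken away, differed between members. For Sfrp4 it was Mgarp (difference 0.19), which was absent from the WT libraries and reached 1157, 1219, 760 and 1133 CPM in the knockout libraries. For Sfrp1 it was Sqle (0.25), for Wnt4 Pvrl2 (0.33), for Rspo1 Nek8 (0.12) and for Sfrp2 Xk (0.07). For Frzb it was Mpp3 (0.37), for Dkk3 Bag5 (0.29), for Fzd1 Zkscan17 (0.16) and for Axin2 Inafm1 (0.15). Inafm1 showed the WT pattern of Axin2, at 0, 27.5 and 0.168 CPM across the WT libraries and 10.7, 7.12, 8.54 and 19.2 CPM in the knockout libraries.

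The wider pathway was read from 9 role lists with 112 genes, which include the 10 members. Of these, 83 had enough counts to test, and 19 rose, 4 fell and 60 were not called. That is 22.9% higher and 4.82% lower, against 19.0% and 3.51% of all tested genes. The median log2 fold change was 0.66 in the 83 genes and 0.45 in all. Each of the 19 that rose had under 10 counts in every WT library. Of the 83, 25 had such low WT counts and passed the filter through Fyn-KO alone, and none of the other 58 was called higher. The same was true of 2340 among the 2493 genes that rose over the whole table. Of the 112 genes, 33, 52 and 30 had 10 or more counts in the WT libraries, and 88, 82, 82 and 83 in the Fyn-KO libraries. Without WT replicate 2, 33 Wnt genes were higher and 6 lower, against 32.8% and 6.00% of all tested genes. Without any 1 Fyn-KO library 2 were lower, against 2.03%, 1.99%, 2.85% and 2.10% of all without replicates 1, 2, 3 and 4.

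**Figure D3:**
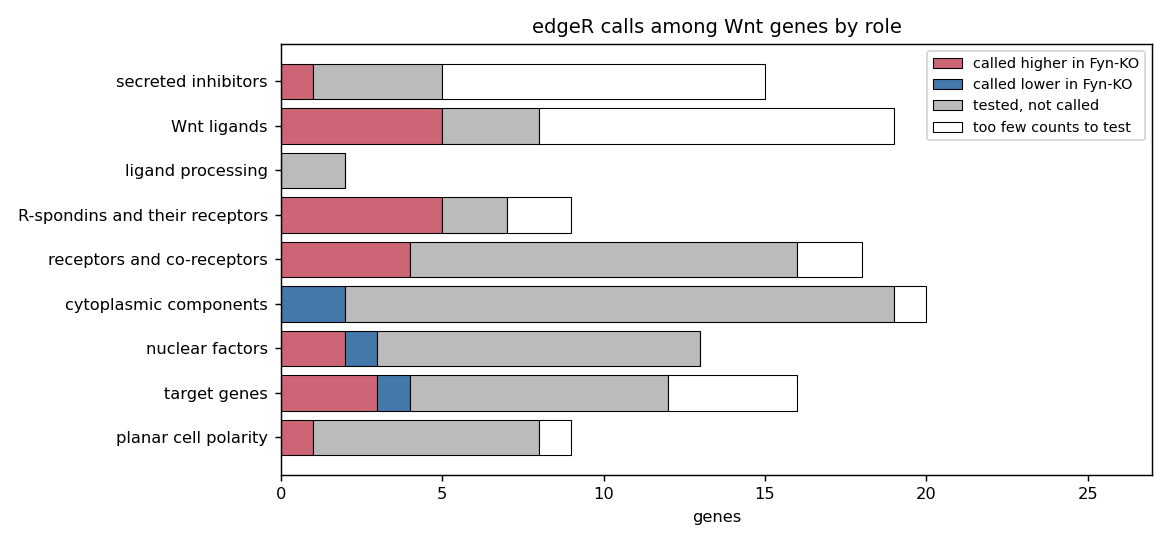
Number of Wnt genes per role list that were called higher in Fyn-KO (red), called lower (blue), tested and not called (grey) or too low to test (white). Calls of higher genes were in the lists of secreted and surface proteins, nuclear factors, targets and planar cell polarity. The 2 calls among 19 tested cytoplasmic components were of lower genes. Over all tested genes, 19.0% were called higher and 3.51% lower. All genes called higher here had under 10 counts in every WT library, as did 6 of 8 tested Wnt ligands and 0 of 19 tested cytoplasmic components.

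Of 19 Wnt ligands, 5 of the 8 tested rose, none fell, and 15 had no count in any WT library. Over all tested genes 19.0% rose and 3.51% fell. Of the 8 tested, 6 had under 10 counts in every WT library, and the 5 that rose were among them. Wnt5a, a ligand best known for signals that do not use beta-catenin, stood at 0 in WT and at 90.1, 82, 73.9 and 75.3 CPM in the knockout libraries, at least 319-fold higher (adjusted p = 0.0121). Wnt6 stood at 0 in WT and at 69.2, 82.6, 58.6 and 83.2 CPM, at least 291-fold higher (adjusted p = 0.0121). Both were even across the 4 Fyn-KO libraries. Wnt2b, Wnt10a and Wnt10b also rose from 0 in WT, to 5.22 ± 1.63, 7.38 ± 5.52 and 7.85 ± 6.01 CPM (SD, n = 4), at least 20.7-fold, 29.3-fold and 31.2-fold higher. Wnt7b, a ligand of the brain, was the ligand with 10 or more counts in more than 1 WT library, at 129, 124 and 0 CPM, with 0.533, 0, 7.88 and 9.02 CPM in the knockout libraries. It was not called (log2 fold change -4.13 ± 2.39, adjusted p = 0.299). Porcn, which attaches the lipid to Wnt proteins, and Wls, which carries them to the surface, were not called (adjusted p = 0.49 and 0.721).

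Of the 9 R-spondins and their receptors, 5 of the 7 tested rose and none fell, against 19.0% and 3.51% of all tested genes. Of the 7, 6 had under 10 counts in every WT library and passed the filter through Fyn-KO alone. The 5 that rose were among those 6. Besides Rspo1, Rspo3 rose from 0 in WT to 5.06 ± 3.58 CPM (at least 20.1-fold higher). Lgr4, a receptor of R-spondins, had 5 counts in WT, in replicate 3, and stood at 58.9, 52.7, 33.4 and 20.6 CPM in the knockout libraries. It was 296 times higher in the mean, a ratio that rests on those 5 counts and has no interval here. The WT mean of 0.14 CPM was under the limit of 0.252 CPM that 3 counts set. Lgr4 was called higher (adjusted p = 0.0384). That call was lost without any 1 Fyn-KO library (adjusted p 0.0801 to 0.103). Znrf3 and Rnf43, the membrane ubiquitin ligases that remove Frizzled and are themselves targets of the pathway, rose from 0 in WT to 17.7 ± 9.79 and 4.26 ± 4.54 CPM, at least 70.1-fold and 16.9-fold higher. Lgr5, a receptor and target gene, stood at 0.47, 4.95 and 0 CPM across the WT libraries and 33.4, 22.5, 20.5 and 26.6 CPM in the knockout libraries. It was not called (adjusted p = 0.157) with all libraries and was called without WT replicate 2 (log2 fold change 6.62, adjusted p = 0.0151).

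**Figure D4:**
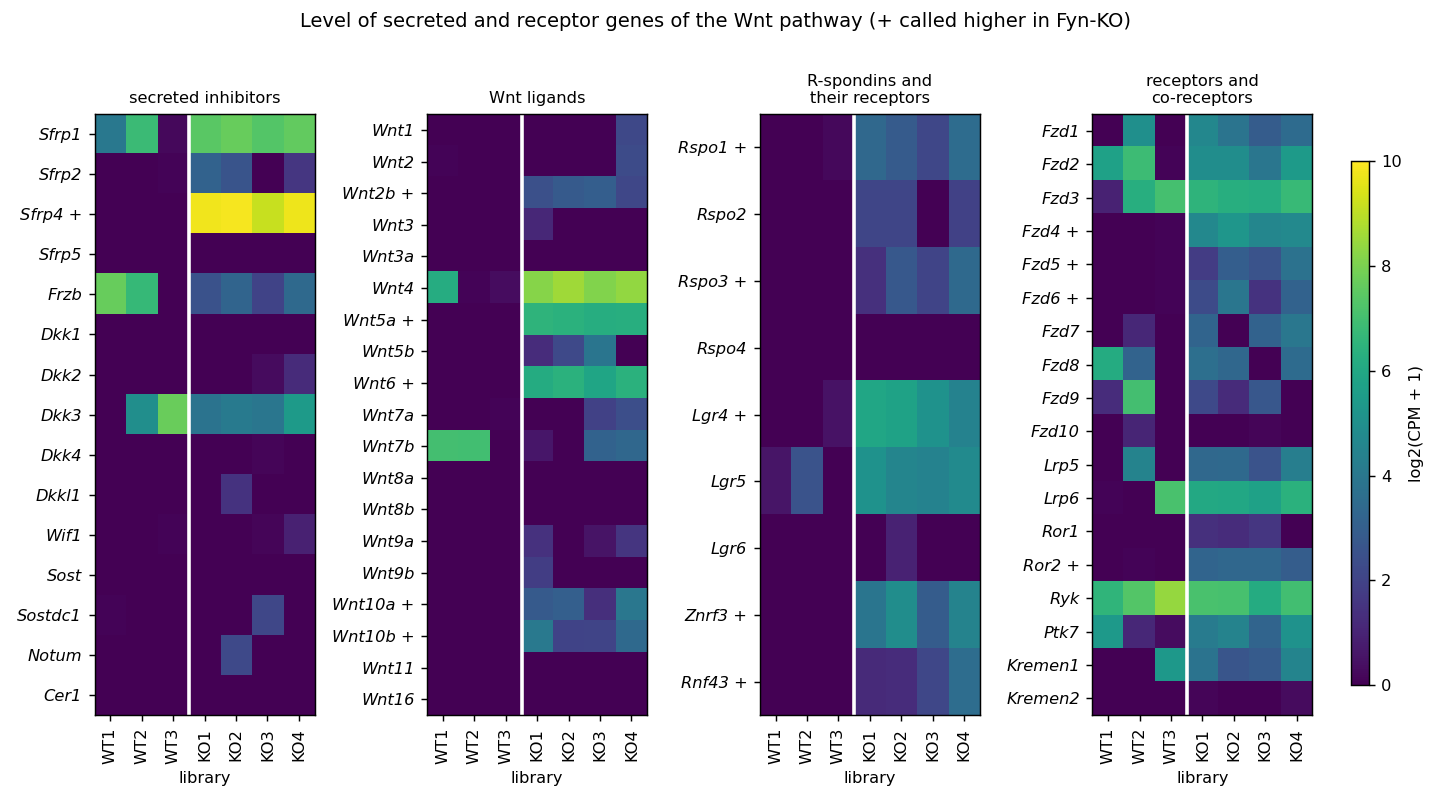
Level of secreted inhibitors, Wnt ligands, R-spondins with their receptors, and Wnt receptors in each library, as log2(CPM + 1) from dark (0) to bright (10). WT1 to WT3 and KO1 to KO4 are the WT and Fyn-KO replicates, a white line divides the groups, and a plus sign marks genes called higher in Fyn-KO, such as Sfrp4, Wnt5a and Wnt6, which had no count in WT.

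Of 18 receptors and co-receptors, 4 of the 16 tested rose, none fell and 12 were not called. That is 25% higher, against 19.0% of all tested genes. Of the 16, 5 had under 10 counts in every WT library, and the 4 that rose were among them. Fzd4, a Frizzled receptor of blood vessels and other tissues, had 1 count in WT and stood at 24.2, 37.4, 22.9 and 25.4 CPM in the knockout libraries, a ratio of pooled counts of 1141 (95% exact counting interval 204 to 45107). Fzd5, Fzd6 and Ror2, a receptor tyrosine kinase for Wnt5a, also had 1 count each in WT and stood at 6.7 ± 4.32, 6.91 ± 5.39 and 8.36 ± 1.17 CPM in the knockout libraries. Other Frizzled genes were seen in WT as well. Fzd3 stood at 0.939, 75.5 and 133 CPM across the WT libraries and 90.6, 76, 71.7 and 107 CPM in the knockout libraries (log2 fold change 0.09 ± 1.24, adjusted p = 0.976). Fzd2 stood at 52.4, 115 and 0.0839 CPM across the WT libraries and at 28.7 ± 11.7 CPM in the knockout libraries (adjusted p = 0.797), and Fzd9 reached 129 CPM in WT replicate 2 with 2.64 ± 2.47 CPM in the knockout libraries (adjusted p = 0.371). Ryk, a receptor that was seen in each library, stood at 92.2, 160 and 338 CPM across the WT libraries and 139, 136, 69.6 and 125 CPM in the knockout libraries (adjusted p = 0.38).

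Among 19 tested cytoplasmic components, 2 fell and none rose, against 3.51% and 19.0% of all tested genes. Each of the 19 had 10 or more counts in at least 1 WT library. Gsk3a, a kinase that marks beta-catenin, fell from 291, 200 and 364 CPM across the WT libraries to 39.1, 45.5, 54.1 and 40.1 CPM in the knockout libraries, 6.38 times lower (log2 fold change -2.82 ± 0.54, adjusted p = 0.0121), and that call held without each of the 7 libraries. Gsk3b, its close relative, stood at 332 ± 126 and 405 ± 21.4 CPM (log2 fold change 0.28 ± 0.30, adjusted p = 0.624). Apc2, a neural relative of Apc, fell from 98.4 ± 66.9 to 5.12 ± 5 CPM (adjusted p = 0.048), a call lost without WT replicate 3 or any 1 Fyn-KO library (adjusted p 0.0585 to 0.12). Ctnnb1, the gene of beta-catenin, stood at 869 ± 290 CPM across the WT libraries and 640 ± 132 CPM in the knockout libraries and was not called (log2 fold change -0.49 ± 0.28, adjusted p = 0.283).

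Of 13 nuclear factors, Tcf7l1 and Pygo1 rose and Ctnnbip1 fell. That is 15.4% higher and 7.69% lower, against 19.0% and 3.51% of all tested genes. Tcf7l1, a TCF factor known mostly as a repressor, had 5 counts in WT and stood at 52.2, 50.1, 43.7 and 44 CPM in the knockout libraries (adjusted p = 0.0162). It was 344 times higher in the mean, a ratio that rests on those 5 counts and has no interval here. The WT mean of 0.138 CPM was under the limit of 0.252 CPM that 3 counts set. Tcf7l1 narrowly missed the threshold without Fyn-KO replicate 1 or 2 (adjusted p = 0.0516 and 0.0514). Pygo1, a co-factor of beta-catenin, had 1 count in WT and 3.42 ± 1.28 CPM in the knockout libraries, and was not called without WT replicate 1 (adjusted p = 0.0744). Ctnnbip1, which keeps beta-catenin from TCF factors, fell from 232, 415 and 902 CPM to 113, 130, 153 and 176 CPM (log2 fold change -2.06 ± 0.59, adjusted p = 0.0378). That call was lost without WT replicate 3 (log2 fold change -1.02, adjusted p = 0.0725) or any 1 Fyn-KO library (adjusted p 0.0774 to 0.105).

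Calls among genes used as readouts of beta-catenin signalling went both ways, as they did over all tested genes. Of 16 targets, 3 of the 12 tested rose (Znrf3, Rnf43 and Myc), 1 fell (Ccnd1) and 8 were not called, Axin2 among them. That is 25% higher and 8.33% lower, against 19.0% and 3.51% of all tested genes. The 3 that rose had under 10 counts in every WT library. Myc, a growth-promoting transcription factor, had 3 counts in WT and stood at 13.1, 6.44, 1.53 and 15.6 CPM in the knockout libraries, a ratio of pooled counts of 124 (95% exact counting interval 42.2 to 605). Ccnd1, cyclin D1, fell from 2762, 4004 and 1057 CPM to 89.2, 91.4, 342 and 200 CPM, 14.4 times lower (log2 fold change -3.76 ± 0.59, adjusted p = 0.0121). Nkd1, a feedback inhibitor, stood at 42.3, 146 and 108 CPM across the WT libraries and 25.4, 21.8, 10.9 and 29 CPM in the knockout libraries, without overlap, and was not called (adjusted p = 0.0878) except without WT replicate 1 (log2 fold change -2.63, adjusted p = 0.0241). Among the WT libraries Lef1 was seen in replicate 3 alone, at 34.9 CPM, with 3.29 ± 2.57 CPM in the knockout libraries (adjusted p = 0.65). Of 9 planar cell polarity genes, Celsr1, an adhesion receptor, rose from 0 in WT to 3.6 ± 1.91 CPM (at least 14.3-fold higher), and 7 were not called. That is 12.5% of the 8 tested, against 19.0% of all tested genes. At an unadjusted p under 0.05, 25 of the 83 Wnt genes were higher and 6 lower, against 26.3% and 7.11% of all tested genes. DESeq2 called 26 and 7, against 27.2% and 7%, and limma-voom called 1 and 2, against 0.183% and 2.44%.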

How the data were processed

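Per the labels, RNA of sorted tumour cells was purified on columns and made into libraries with the Lexogen QuantSeq kit, which reads 3' ends of polyadenylated RNA. Per the submitters' processing notes, Bowtie2, bedtools and DESeq2 1.32.0 were used with mm10 (GRCm38). The authors deposited 1 table of whole-number counts per gene, called modified; the sources used here do not give what was modified, the annotation or the strand of counting. Column WT3 was joined to the WT group only, since a different WT sample bears that name as title.

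With edgeR 4.0.16 (R 4.3.3), low genes were dropped by filterByExpr (minimum count 10), libraries were scaled by TMM factors and genes were tested with the quasi-likelihood F test, two-sided, with adjustment over 13122 genes. The SE is approximate, the size of the log2 fold change divided by the root of F. CPM are counts per 1000000 of the library total, and values are mean ± SD. With no count in a group, folds are against 3 counts in its shallowest library; with 1 to 3 counts, pooled ratios have exact intervals. Both cover counting error only. That the samples came from separate mice is given by the series design, and p-values measure the spread between these libraries. The alternatives were RLE factors, library totals alone, no filter, a minimum count of 50, genes detected in both groups (10 counts in 2 or more WT and 3 or more Fyn-KO libraries), DESeq2 1.42.0, limma-voom of limma 3.58.1 with quality weights, a replicate block, Rn45s left out and each library left out. Coordinates are from GENCODE M21 and promoters from RefSeq (GRCm38.p6), which held 7 of the 10 members and 77 of 112 Wnt genes. Named genes are the members, each other Wnt gene called, and the gene most like each member; other Wnt genes were named after their values were seen. The members and lists were chosen with earlier results of these data known.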

Additional observations from a re-analysis of the deposited data

Results flagged for a closer look

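Among the 4 Fyn-KO libraries, replicate 4 stood apart from the other 3 in 2 of 31 genes checked. Dkk3 was at 42.3 CPM there, against 12.9, 16.3 and 14 CPM in the others. Wif1 was at 0.891 CPM there, which is 8 counts, against 0, 0 and 0.109 CPM. The gap to the nearest library exceeded 0.829 of the group's range in both, a limit that chance passes in about 1 in 20 groups. In the 4 libraries labelled Fyn-KO, markers of steroid-producing cells summed to 24730 to 29797 CPM and those of oligodendrocyte progenitors to 138 to 887 CPM, against 89 to 480 and 8161 to 12003 CPM in WT, and this stands beside every Fyn-KO value given here.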

How the results depend on the processing

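All values rest on 3 WT and 4 Fyn-KO libraries, and genes at 0 in WT are limited by a floor of 3 counts. RLE factors, library totals alone and leaving out Rn45s left the 2 higher members and the 19 higher and 4 lower Wnt genes as they were. The members called higher were 1 with no filter (Sfrp4), 0 of 3 tested among genes detected in both groups, and 1 in limma-voom (Wnt4). The rule for genes detected in both groups left out all 19 Wnt genes called higher above, Sfrp4 and Rspo1 among them. None of those 19 could be called there. DESeq2 called 1 member lower (Frzb) and gave no adjusted p for Sfrp1 and Axin2. The higher Wnt genes numbered 16 with no filter, 12 at a minimum count of 50, 0 among 36 genes detected in both groups and 1 in limma-voom, against 13.7%, 17.5%, 0.807% and 0.183% of all genes tested in each. The lower ones numbered 3 with no filter, 2 among genes detected in both groups, 7 in DESeq2 and 2 in limma-voom, against 2.43%, 2.26%, 7% and 2.44%. With 1 library left out, 2 to 4 members were higher and 0 to 1 lower, and 17 to 33 Wnt genes were higher and 2 to 6 lower. Dkk3 turned to 0.66 in limma-voom. With 1 library left out, the log2 fold change of Dkk3 ran from -2.86 to 0.79 and that of Axin2 from -0.03 to 10.09. The 10.09 was fitted with no WT count and is not a measured size. The sign turned without WT replicate 3 for Dkk3 and without WT replicate 1 or 3 for Axin2. The cause of these changes was not tested. Same-numbered WT and Fyn-KO libraries did not deviate together (Pearson r over genes -0.0142, -0.000155 and -0.0205, and each was closest to another number). With a replicate block, 2 members were higher (Sfrp4 and Wnt4), and 3 Wnt genes were higher and 1 lower, against 1.43% and 1.03% of all genes. Of 132 log2 fold changes of members under alternatives, 114 kept direction and call, 5 lost a call, 9 gained one and 4 reversed. The 20 CPM differences under other scalings kept direction and side of 0.05 in the permutation test.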
